A study of Mus musculus with 7 samples.

Results

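Costimulation of T cells was examined through 10 genes that encode costimulatory receptors and their ligands: Cd28, Icos, Cd40lg, Cd27 and Tnfrsf9 on the T cell side, and Cd80, Cd86, Icosl, Cd40 and Cd70 on the antigen-presenting side. They were chosen by name, with earlier results of these data known, as were the lists of other genes used below. All 10 were found among the 22629 rows of a table of counts per gene. Of these genes, 17489 had enough counts to be tested, 9 of the 10 members among them. The RNA came from whole s/c tumors of 1242 KPC cells, a mouse pancreatic ductal adenocarcinoma (PDA) line from a mouse model with mutant Trp53 and Pdx1-Cre, grown in C57BL/6 mice and taken 2 weeks after inoculation. The 3 sgScramble tumors were formed with cells that carried Cas9 and a scrambled guide. The 4 sgScramble-icOVA tumors (icOVA) came from the same kind of cells to which a doxycycline-inducible vector for cytoplasmic ovalbumin, a model foreign antigen, had been added, so that Cas9 and the scrambled guide were shared by both groups. The icOVA cells were sorted and grown from single cells, so a difference between the groups and a difference between cell clones cannot be told apart. For ovalbumin-inducible tumors, the study's methods give doxycycline food from the day of inoculation and more inoculated cells than the usual number for s/c tumors. The study describes s/c tumors of cells with the inducible vector, formed with or without doxycycline. For the sequenced tumors, the sources used here do not state whether sgScramble cells were polyclonal or carried the vector without its induction. Nor do they state whether the mice with sgScramble tumors received doxycycline, or how many cells those tumors were started from. The groups may thus differ in the vector, its induction, doxycycline, the number of cells or several of these. The labels give no age, and the study's methods give the age of the mice at purchase and how long they were housed before an experiment.

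A T cell that recognises its antigen needs a second signal to be fully activated. CD28 is present on resting T cells and is bound by CD80 and CD86 on dendritic cells, macrophages and B cells, which are the same ligands that the inhibitory receptor CTLA4 takes up. ICOS is a relative of CD28 that appears after activation and has its own ligand, ICOSL. The other receptors belong to the tumor necrosis factor (TNF) receptor superfamily: CD27 is bound by CD70, and 4-1BB, the product of Tnfrsf9, by the product of Tnfsf9. CD40L, the product of Cd40lg, works in the other direction, since activated T cells carry it and it engages CD40 on antigen-presenting cells. In tumors of the pancreas, CD40 and 4-1BB are known as targets of agonist antibodies.

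Promoter sequences of GRCm38.p6, taken from RefSeq as 250 bases before to 50 bases after a start site, were at hand for 4 of the 10 members. They are shown because no other member had one at hand. They include a pair that rose in icOVA tumors (Cd27, Cd80) and a pair that did not pass the test (Icosl, Tnfrsf9). Each is printed 5′ to 3′ on the strand of the gene, and capitals mark matches to the AP-1 motif TGANTCA or to the 10-letter kappaB motif, both bound by factors downstream of the T cell receptor and of TNF receptors.
Cd27, chr6:125236978-125237277, minus strand: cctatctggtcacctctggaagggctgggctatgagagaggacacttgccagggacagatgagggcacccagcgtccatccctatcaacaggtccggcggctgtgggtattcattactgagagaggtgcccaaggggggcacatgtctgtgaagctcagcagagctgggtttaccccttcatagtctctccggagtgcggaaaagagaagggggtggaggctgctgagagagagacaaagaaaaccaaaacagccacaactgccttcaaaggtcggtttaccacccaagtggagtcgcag
Cd80, chr16:38458683-38458982, plus strand: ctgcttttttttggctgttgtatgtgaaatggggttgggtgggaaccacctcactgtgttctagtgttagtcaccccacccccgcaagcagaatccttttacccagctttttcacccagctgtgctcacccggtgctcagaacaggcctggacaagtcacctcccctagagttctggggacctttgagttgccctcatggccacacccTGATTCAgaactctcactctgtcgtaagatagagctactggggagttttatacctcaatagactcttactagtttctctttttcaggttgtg
Icosl, chr10:78069118-78069417, plus strand: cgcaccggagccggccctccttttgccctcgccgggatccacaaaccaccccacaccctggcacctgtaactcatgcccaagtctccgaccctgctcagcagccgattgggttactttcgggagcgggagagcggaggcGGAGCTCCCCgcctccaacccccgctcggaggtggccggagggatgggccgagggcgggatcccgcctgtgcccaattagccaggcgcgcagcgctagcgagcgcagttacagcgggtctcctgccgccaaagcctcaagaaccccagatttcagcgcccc
Tnfrsf9, chr4:150927749-150928048, plus strand: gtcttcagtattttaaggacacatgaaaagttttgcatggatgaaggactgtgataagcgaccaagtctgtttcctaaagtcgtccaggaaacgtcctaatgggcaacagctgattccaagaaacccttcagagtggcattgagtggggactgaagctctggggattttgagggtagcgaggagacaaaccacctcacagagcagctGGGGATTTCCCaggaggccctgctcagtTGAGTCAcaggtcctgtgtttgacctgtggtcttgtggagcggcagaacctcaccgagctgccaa
The Tnfrsf9 window held overlapping kappaB matches, the first 43 bases before the start site (position -43), and an AP-1 match at -15. Another Tnfrsf9 start, with the window chr4:150919905-150920204, had neither. The Cd80 window held an AP-1 match at -42, the Icosl window a kappaB match on the minus strand at -111, and the Cd27 window no match. Both strands were searched. An interferon-stimulated response element motif was searched too and matched no window of the members. Of all 32851 windows of 300 bases, 8.46% held a kappaB match and 7.81% an AP-1 match. The motifs were chosen with the expression values known, and a match is a description of the letters only.

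The libraries held between 30904855 and 37510591 counts. The OVA row had 85 to 151 counts in sgScramble tumors and 3413 to 10750 in icOVA tumors, so its order follows the labels. The row was thus not empty in sgScramble tumors, and the source of their OVA counts was not tested. Markers of T cells were higher in icOVA tumors: 9 of 10 passed the test, against 3.36% of all genes called higher. Their summed level was 101 to 166 CPM (counts per 1000000 counts of the scaled library) in sgScramble tumors and 234 to 367 CPM in icOVA tumors. Ptprc, the pan-leukocyte CD45 gene, rose by 1.08 on the log2 scale (SE 0.18, adjusted p = 0.0271, edgeR). Cancer epithelium markers did not pass (0 of 6 with edgeR, 0 of 6 at an unadjusted p under 0.05, and 0 of 6 with DESeq2), with summed levels of 4464 to 4706 CPM and 2910 to 5072 CPM. In bulk tumors, fewer cells of a type and less RNA per cell cannot be told apart, and this holds for every level below.

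Costimulatory genes were higher in icOVA tumors on both sides of the interaction. Of the 8 members that reached the minimum count in both groups, 6 rose and 0 fell: Cd28, Icos and Cd27 on the T cell side, and Cd40, Cd80 and Cd86 on the antigen-presenting side. In the whole table, the quasi-likelihood test of edgeR, adjusted by the method of Benjamini and Hochberg, called 3.36% of genes higher and 2.54% lower. Since the members were chosen with earlier results of these data known, these shares are given as background only. Cd40lg was also called higher, which makes 7 of 9 members tested, but it reached the minimum count in icOVA tumors alone and so could be tested only because it was higher there. Tnfrsf9 and Icosl did not pass the test, and Cd70 had too few counts for one.

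No member fell at an unadjusted p under 0.05 with edgeR, DESeq2 or limma-voom. Without Cd40lg, the median log2 fold change was 1.51 over 4 T cell side members and 0.72 over the 4 antigen-presenting members tested, against -0.0048 over all genes. In each of the 6 that rose, every icOVA tumor lay above every sgScramble tumor, which was so for 11.3% of all genes tested. These directions are relative to all genes: scaled to Ptprc instead, the median of all genes was -1.10 on the log2 scale, with 80.4% of genes called lower and 0.4% higher, and 0 members passed as higher and 3 of 9 as lower (Cd86, Icosl and Tnfrsf9).

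The calls depended on single tumors. With tumor 1 or 5 of the sgScramble group or icOVA tumor 15 left out, no gene of the table passed the adjusted threshold and so 0 members did. At an unadjusted p under 0.05, 8, 7 and 8 members were higher in these fits, Cd40lg included, against 9.1%, 8.62% and 10.3% of all genes. Without icOVA tumor 2, Icos alone of the members passed, with 7 at an unadjusted p under 0.05 against 12.1% of all genes.

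**Figure D1:**
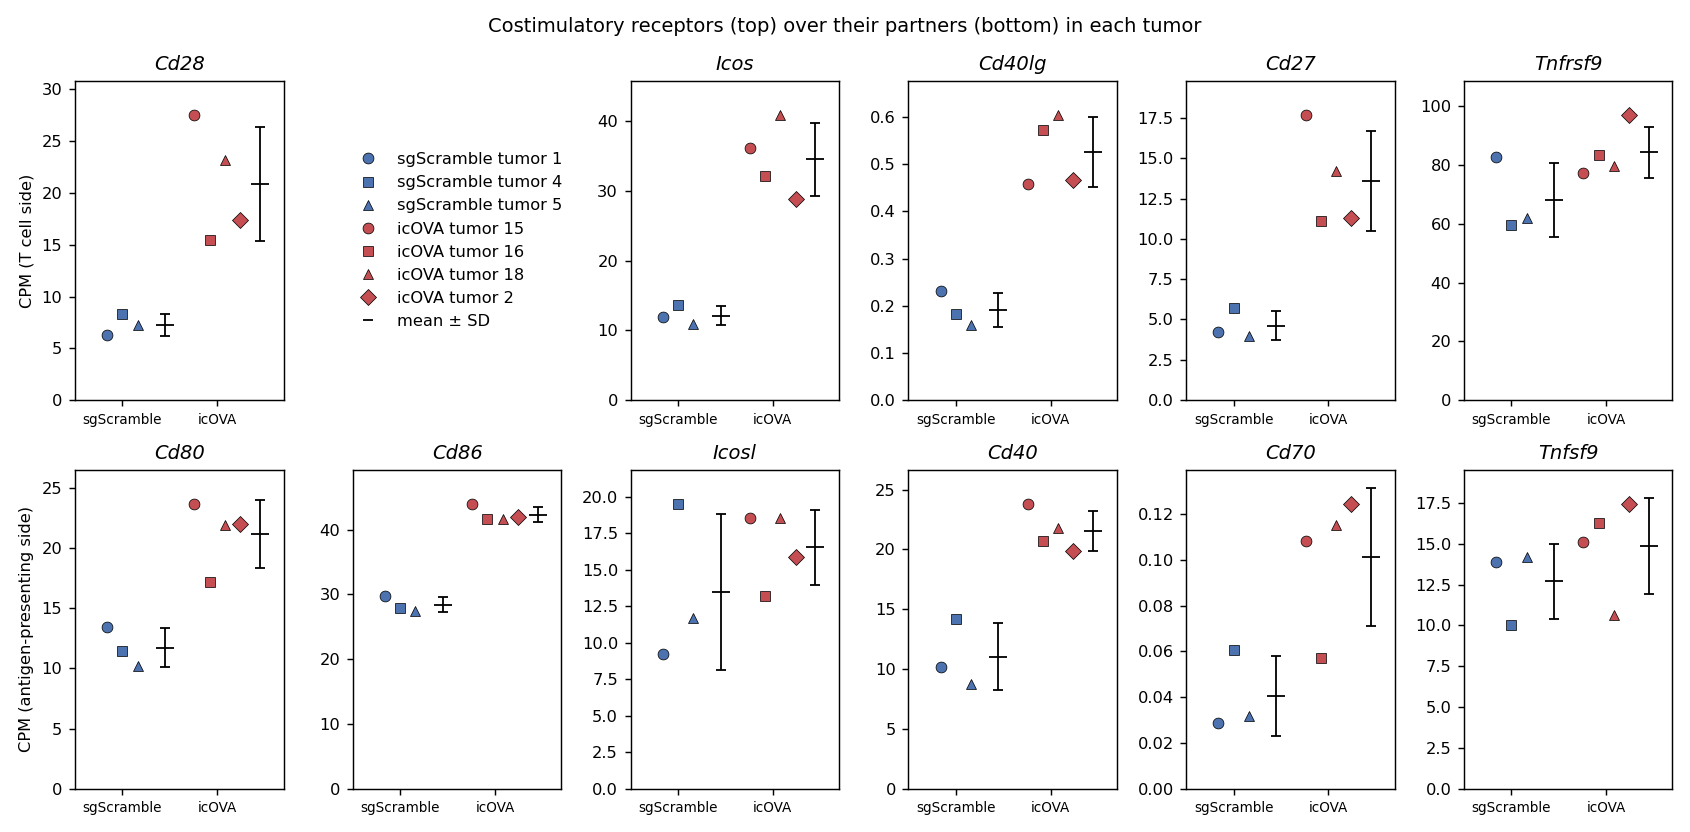
Level of each gene in CPM (vertical axes, all from 0) in the 3 sgScramble and 4 icOVA tumors, each T cell side gene above its partner or partners. Points are tumors, and bars give the mean ± SD. The groups are apart for Cd28, Icos, Cd40lg, Cd27, Cd80, Cd86 and Cd40, and overlap for Tnfrsf9, Icosl, Cd70 and Tnfsf9, the ligand of 4-1BB.

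Cd28 (chr1:60716800-60773359, mm10), the receptor of the primary costimulatory signal, was at 6.25, 8.35 and 7.23 CPM in sgScramble tumors 1, 4 and 5, and at 27.5, 15.4, 23.2 and 17.4 CPM in icOVA tumors 15, 16, 18 and 2. All icOVA tumors lay above the highest sgScramble tumor, with tumors 15 and 18 the highest of the 7. The log2 fold change was 1.52 (SE 0.22, 95% interval 1.001 to 2.04, adjusted p = 0.0230).

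Icos (chr1:60977927-61000320), the inducible relative of Cd28, stood at 11.9, 13.6 and 10.9 CPM in sgScramble tumors 1, 4 and 5 and at 36.2, 32.2, 40.9 and 28.9 CPM in icOVA tumors 15, 16, 18 and 2. The lowest icOVA tumor was above the highest sgScramble tumor, and the spread within each group was small beside the gap. Icos rose by 1.51 on the log2 scale (SE 0.14, 95% interval 1.18 to 1.84, adjusted p = 0.0170), the smallest adjusted p of the members. It passed in 4 of the 7 fits with a tumor left out, more than any other member, and its log2 fold change in those fits was 1.42 to 1.61.

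Ctla4 (chr1:60887000-60915832), whose product competes with CD28 for CD80 and CD86, lies between Cd28 and Icos on chromosome 1. It rose too, by 1.52 on the log2 scale with an SE of 0.16 (adjusted p = 0.0203). Its level was 8.38, 6.56 and 6.08 CPM in sgScramble tumors 1, 4 and 5, and 21.9, 16.7, 21.8 and 20.4 CPM in icOVA tumors 15, 16, 18 and 2. Both the activating and the inhibitory receptor of the same ligands were thus higher in all 4 icOVA tumors.

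Cd27 (chr6:125232622-125237010), a TNF receptor family member carried by naive and recently activated T cells, was at 4.23, 5.68 and 3.96 CPM in sgScramble tumors 1, 4 and 5. In icOVA tumors 15, 16, 18 and 2 it was at 17.7, 11.1, 14.2 and 11.3 CPM. The groups did not overlap, and tumor 15 was again the highest. The log2 fold change was 1.55 (SE 0.22, 95% interval 1.04 to 2.06, adjusted p = 0.0230), the largest of the members. A microRNA gene, Mir8113, shares 129 exon bases with Cd27 on the same strand, so reads there may belong to either.

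Cd40lg, the CD40 ligand gene on chromosome X that activated CD4+ T cells express, was scarce in every tumor. It had 8, 6 and 5 counts in sgScramble tumors 1, 4 and 5, and 17, 20, 21 and 15 counts in icOVA tumors 15, 16, 18 and 2. The groups did not overlap and the log2 fold change was 1.44 (SE 0.30, 95% interval 0.76 to 2.12, adjusted p = 0.0370). Cd40lg passed the filter on low counts only through the icOVA tumors, and it was not tested where at least 10 counts in every tumor were required. Its call was also lost, with 6 members then called, without sgScramble tumor 4 or without icOVA tumor 18.

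Tnfrsf9 (chr4:150914562-150946102), the 4-1BB gene of which a promoter is printed above, had a level unlike the other T cell side genes. It was at 82.8, 59.6 and 62.1 CPM in sgScramble tumors 1, 4 and 5, and at 77.3, 83.3, 79.7 and 97.0 CPM in icOVA tumors 15, 16, 18 and 2. The groups overlapped, since sgScramble tumor 1 stood above icOVA tumors 15 and 18. The log2 fold change of 0.31 (SE 0.13, 95% interval -0.0033 to 0.62, adjusted p = 0.187) did not pass the test, and it was 0.23 to 0.47 with a tumor left out. Tnfsf9, the gene for its ligand, did not pass either (log2 fold change 0.23, SE 0.20, adjusted p = 0.491). Tnfsf9 ranged from 10.1 to 14.2 CPM in sgScramble tumors and from 10.7 to 17.4 CPM in icOVA tumors.

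The B7 ligands of CD28 lie on chromosome 16 and both rose, with smaller log2 fold changes than that of Cd28. Cd80 (chr16:38455561-38496335), which activated antigen-presenting cells induce, was at 13.4, 11.4 and 10.2 CPM in sgScramble tumors 1, 4 and 5, and at 23.7, 17.1, 21.9 and 22.0 CPM in icOVA tumors 15, 16, 18 and 2. Tumor 16 was the lowest icOVA tumor and still above all sgScramble tumors. The log2 fold change of Cd80 was 0.86 (SE 0.15, 95% interval 0.52 to 1.19, adjusted p = 0.0271).

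Cd86 (chr16:36603869-36666081), the B7 ligand that many resting antigen-presenting cells already express, varied little within the groups. It stood at 29.7, 28.0 and 27.5 CPM in sgScramble tumors 1, 4 and 5, and at 44.0, 41.7, 41.7 and 42.0 CPM in icOVA tumors 15, 16, 18 and 2. With so little spread in either group, a log2 fold change of 0.58 (SE 0.066, 95% interval 0.42 to 0.73) passed the test at an adjusted p of 0.0230.

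Cd40 on chromosome 2, the receptor through which CD4+ T cells license dendritic cells, was at 10.2, 14.2 and 8.76 CPM in sgScramble tumors 1, 4 and 5. In icOVA tumors 15, 16, 18 and 2 it was at 23.8, 20.7, 21.7 and 19.9 CPM. The groups did not overlap, with sgScramble tumor 4 the nearest to the icOVA tumors. The log2 fold change was 0.96 (SE 0.17, 95% interval 0.57 to 1.36, adjusted p = 0.0284), the largest on the antigen-presenting side.

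Icosl on chromosome 10, which B cells, dendritic cells and also non-hematopoietic cells can express, did not pass the test. It was at 9.24, 19.5 and 11.7 CPM in sgScramble tumors 1, 4 and 5, and at 18.5, 13.2, 18.6 and 15.9 CPM in icOVA tumors 15, 16, 18 and 2. The highest of all 7 was an sgScramble tumor, tumor 4, and the groups overlapped. The log2 fold change of 0.30 (SE 0.26, 95% interval -0.30 to 0.89, adjusted p = 0.487) came to 0.088 when sgScramble tumor 1 was left out and to 0.67 when tumor 4 was (adjusted p = 0.0717). The 3 tumors with the highest Icosl, sgScramble tumor 4 and icOVA tumors 15 and 18, also had the highest summed fibroblast markers, at 6058, 9049 and 13156 CPM against 2242 to 3323 CPM in the other 4. This set of tumors was noticed after the values were seen. Fibroblast markers did not pass between the groups (0 of 5 with edgeR, 0 at an unadjusted p under 0.05, 0 with DESeq2). Of 4 endothelial cell markers, 0 were called with edgeR, 4 were higher at an unadjusted p under 0.05 and DESeq2 called 4 higher. Of all genes, 13.4% were higher without adjustment and 8.91% were called higher with DESeq2. The part of fibroblasts and endothelial cells in the Icosl levels was not tested.

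Cd70, the gene for the ligand of CD27 on chromosome 17, was near the limit of detection, with 1, 2 and 1 counts in sgScramble tumors 1, 4 and 5 and 4, 2, 4 and 4 counts in icOVA tumors 15, 16, 18 and 2. No fold change is given for it, and at this depth a difference was not detectable.

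**Figure D2:**
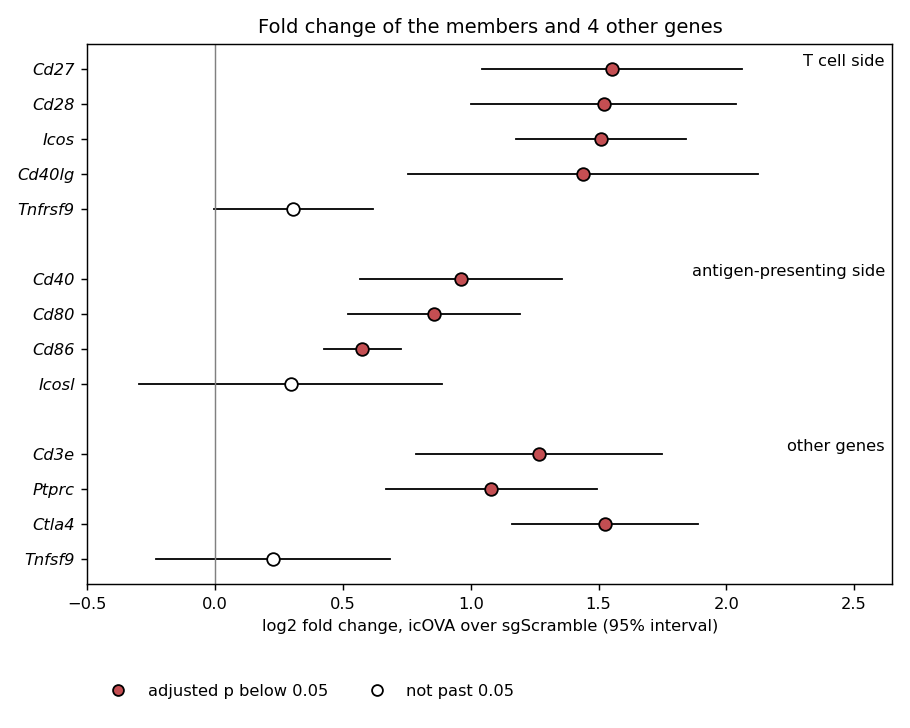
Log2 fold change of icOVA over sgScramble tumors (horizontal axis) with its 95% interval for the 9 members tested and for Cd3e, Ptprc, Ctla4 and Tnfsf9. Filled points passed an adjusted p of 0.05 in edgeR. The T cell side genes Cd28, Icos and Cd27 lie between 1.51 and 1.55, Cd40lg, which reached the minimum count in icOVA tumors alone, at 1.44, the 3 antigen-presenting genes that passed between 0.58 and 0.96, and the intervals of Tnfrsf9, Icosl and Tnfsf9 include 0. Scaled to Ptprc, the values of Cd40, Cd80 and Cd86 fall below 0, with the median of all genes at -1.10.

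Compared per kilobase of exon, Tnfrsf9 had the highest level of the members in both groups, at 25.0 ± 4.7 CPM per kb in sgScramble tumors (SD, n = 3) and 31.0 ± 3.2 CPM per kb in icOVA tumors (SD, n = 4). Cd86 followed, at 7.75 ± 0.32 and 11.6 ± 0.30 CPM per kb. In sgScramble tumors Icos (3.54 ± 0.41), Cd40 (3.24 ± 0.83), Cd80 (3.16 ± 0.44), Icosl (2.92 ± 1.2) and Cd27 (1.99 ± 0.40 CPM per kb) came next, and each overlapped with its neighbour in that order. Cd28 at 1.19 ± 0.17, Cd40lg at 0.153 ± 0.029 and Cd70 at 0.0481 ± 0.021 CPM per kb stood apart from one another at the low end.

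In icOVA tumors Icos, at 10.1 ± 1.5 CPM per kb, overlapped with Cd86 and stood apart from the next gene. Cd40 (6.32 ± 0.50), Cd27 (5.83 ± 1.3) and Cd80 (5.72 ± 0.76 CPM per kb) overlapped in that order, Cd27 having been below both Cd40 and Cd80 in sgScramble tumors by its mean. Icosl (3.58 ± 0.55) and Cd28 (3.41 ± 0.90 CPM per kb) overlapped as well. Cd40lg at 0.421 ± 0.059 and Cd70 at 0.120 ± 0.036 CPM per kb remained the lowest.

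Each T cell side gene was then set against its partner within the same tumor as the log2 ratio of their counts with 2 added to each. Library size cancels in this ratio where both genes have many counts, but not where a partner has few, as Cd70 and Cd40lg do. The log2 ratio of Icos to Icosl was 0.36, -0.51 and -0.10 for sgScramble tumors 1, 4 and 5, against 0.96, 1.28, 1.14 and 0.86 for icOVA tumors 15, 16, 18 and 2. The 2 groups did not overlap, and their means differed by 1.15 (exact permutation test, two-sided, p = 0.0286, adjusted over 6 pairs 0.0857).

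The log2 ratio of Cd28 to Cd86 was -2.24, -1.73 and -1.92 for the sgScramble tumors, against -0.68, -1.43, -0.84 and -1.27 for the icOVA tumors, a difference of 0.91 (exact permutation p = 0.0286, adjusted 0.0857). For Cd28 to Cd80 the difference was 0.63 (exact permutation p = 0.0571, adjusted 0.0857), again with all 4 icOVA tumors above the sgScramble tumors. In these 3 pairs every icOVA ratio lay above every sgScramble ratio, and none passed after adjustment. With 3 tumors against 4, the smallest p that the 35 splits allow is 0.0286.

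The other pairs gave no such separation or rest on few counts. Cd27 to Cd70 differed by 0.89 with 2 added, by 0.49 with 0.5 added and by 1.17 with 5 added (exact permutation p = 0.0571, 0.143 and 0.0286), so that the value is set by the constant added to the 1 to 4 counts of Cd70 and says nothing of the pair. Cd40lg to Cd40 differed by 0.23 on the log2 scale (exact permutation p = 0.40, adjusted 0.48), with 2 of 4 icOVA tumors above all sgScramble tumors, and by -0.015 with 5 added. Tnfrsf9 to Tnfsf9 differed by 0.098 (exact permutation p = 0.629, adjusted 0.629), with 1 of 4 above.

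**Figure D3:**
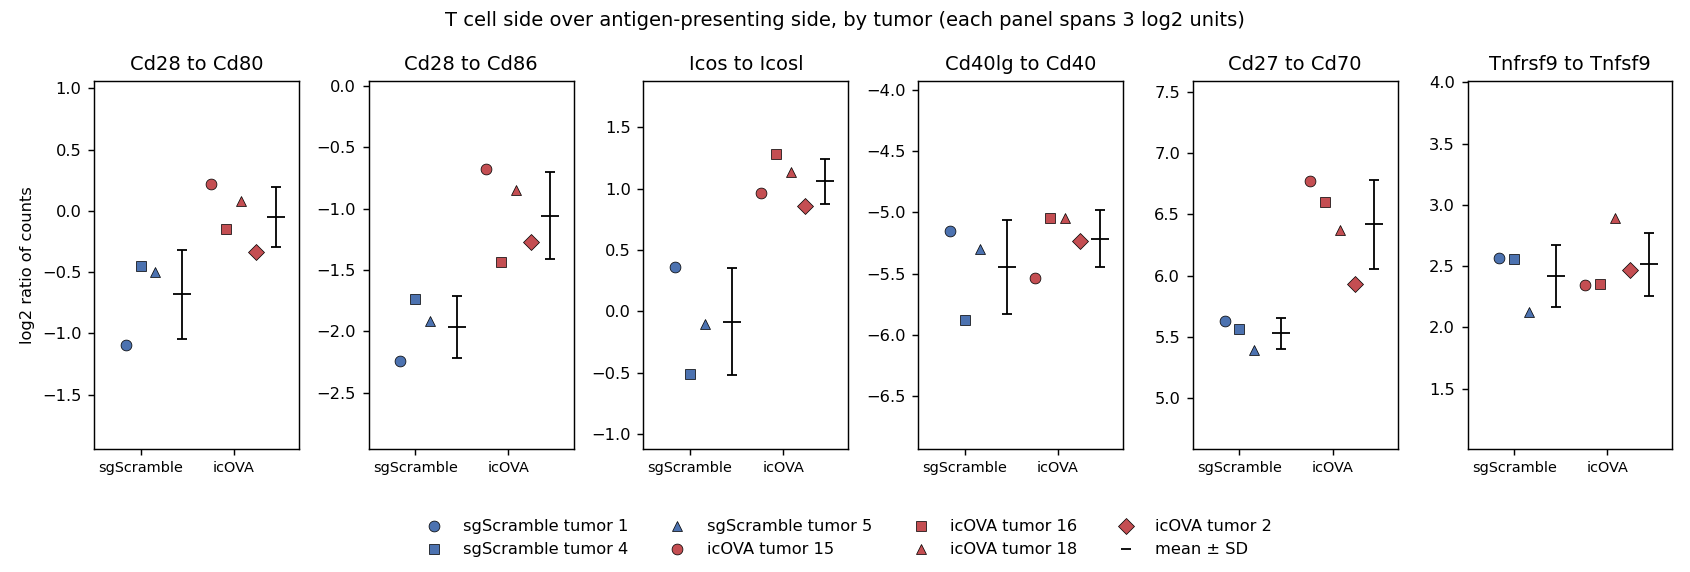
Log2 ratio of T cell side to antigen-presenting side counts (vertical axes, each spanning 3 log2 units) in each tumor for 6 pairs, with the mean ± SD of each group. The icOVA tumors lie above all sgScramble tumors for Cd28 to Cd80, Cd28 to Cd86 and Icos to Icosl. Those of Cd27 to Cd70 rest on 1 to 4 counts of Cd70, and the groups mix for Cd40lg to Cd40 and Tnfrsf9 to Tnfsf9.

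The T cell side genes were also set against Cd3e, a subunit of the T cell receptor complex, which rose by 1.27 on the log2 scale (SE 0.21, adjusted p = 0.0271, edgeR). Relative to Cd3e, the difference between the groups was 0.22 for Cd28, 0.23 for Icos, 0.27 for Cd27 and -0.051 for Cd40lg on the log2 scale, with exact permutation p of 0.114, 0.286, 0.114 and 0.886 (adjusted over 5 genes 0.190, 0.357, 0.190 and 0.886). None passed, and a change unequal to that of Cd3e was not detectable for these 4 genes with 7 tumors. The sign for Cd40lg, which rests on few counts, turned with the prior count.

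For Tnfrsf9 the difference had the opposite sign. Its log2 ratio to Cd3e was 3.16, 2.03 and 2.41 for sgScramble tumors 1, 4 and 5, against 1.13, 1.96, 1.44 and 1.80 for icOVA tumors 15, 16, 18 and 2. All 4 icOVA tumors lay below every sgScramble tumor, a difference of -0.95 (exact permutation p = 0.0286, adjusted 0.143). After adjustment the difference did not pass. Tnfrsf9 had 2875, 1962 and 1943 counts in sgScramble tumors 1, 4 and 5, where Cd3e had 320, 479 and 365. It is placed on the T cell side by its role as a receptor. Which cells held its RNA in these tumors was not tested, so the ratio is not a level per T cell.

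On the antigen-presenting side, markers of the cells that carry these ligands were examined in the same way. Of all genes, 3.36% were called higher with edgeR, 13.4% were higher at an unadjusted p under 0.05 and 8.91% were called higher with DESeq2. Of 8 macrophage markers, 1 rose with edgeR, Cd68, a lysosomal protein of macrophages, with 6 at an unadjusted p under 0.05 and 5 called by DESeq2. Their summed level was 1069 to 1456 CPM in sgScramble tumors and 1431 to 2183 CPM in icOVA tumors. Of 7 dendritic cell markers, 0 passed with edgeR, 3 did so at an unadjusted p under 0.05 and 2 with DESeq2, and they summed to 116 to 154 CPM and 121 to 245 CPM. Of 5 B cell markers tested, 0 passed with edgeR, without adjustment or with DESeq2, and all 6 listed summed to 3.17 to 5.02 CPM and 6.10 to 7.45 CPM. No marker of these lists was at 0 in all tumors, and their part in the levels of Cd40, Cd80 and Cd86 was not tested. The same holds for the T cell markers beside Cd28, Icos, Cd27 and Cd40lg.

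Other cells also carry some of these genes, CD27 and 4-1BB being found on NK cells, and ICOS, OX40 and GITR on regulatory T cells. Of 3 NK cell markers 1 rose with edgeR, Eomes, a transcription factor that T cells share (adjusted p = 0.0482). DESeq2 called 1 of the 3 and limma-voom 0, against 8.91% and 2.96% of all genes. The summed levels of the NK cell markers were 10.0 to 14.3 CPM in sgScramble tumors and 11.7 to 31.1 CPM in icOVA tumors. Of 4 regulatory T cell markers 0 passed with edgeR, 1 did so at an unadjusted p under 0.05 and 1 with DESeq2, against 13.4% and 8.91% of all genes. Their sums were 34.6 to 40.4 CPM and 36.9 to 60.2 CPM, and Foxp3 was highest in icOVA tumor 18 at 9.43 CPM. The part of these cells in the members' levels was not tested.

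Other genes of the pathway were read from a list of 46 receptors, ligands, signal transducers and outputs, of which 45 were in the table and tested. Of these, 17 rose and 0 fell, against 3.36% of all genes called higher. This list too was chosen with earlier results of these data known, so the share is background only. DESeq2 called 20 and limma-voom 14 higher, against 8.91% and 2.96% of all genes, and limma-voom lost Cd226, Tnfrsf4 and Grap2 (adjusted p = 0.0580, 0.0559 and 0.0598). Scaled to Ptprc, 0 passed as higher and 17 of 45 as lower, against 80.4% of all genes called lower. Among other receptors and ligands, 8 of 18 rose. Besides Ctla4, these included the adhesion pair Cd2 (log2 fold change 1.30) and Cd48 (1.03), the activating receptor Cd226 (1.24), the costimulatory TNF receptors Tnfrsf4 (OX40, 0.99) and Tnfrsf18 (GITR, 0.95), and Cd274, the PD-L1 gene (0.93).

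The OX40 gene rose by 0.99 on the log2 scale (SE 0.21, adjusted p = 0.0393), and limma-voom did not call it (adjusted p = 0.0559). It was at 5.58, 5.68 and 5.53 CPM in sgScramble tumors 1, 4 and 5, and at 9.08, 8.83, 15.3 and 11.4 CPM in icOVA tumors 15, 16, 18 and 2. GITR was also highest in tumor 18, at 17.7 CPM against 6.77 to 6.99 CPM in sgScramble tumors (adjusted p = 0.0351).

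Of 22 signal transducers, 9 rose. They included the kinases Lck (log2 fold change 1.11) and Prkcq (1.37), the adaptors Grap2 (1.21) and Lcp2 (1.18), the exchange factor Vav1 (0.86), the lipid kinase subunit Pik3cd (0.99), and Traf1 (0.91), which binds 4-1BB and other TNF receptors. The median over all 22 was 0.35. Of the 5 outputs, 0 passed with edgeR, 3 were higher at an unadjusted p under 0.05 against 13.4% of all genes, and DESeq2 called 1. Il2, Il21 and Il12a reached the minimum count in icOVA tumors alone, so these counts say little of the outputs. Il2, the T cell growth factor gene, had 3, 5 and 6 counts in the sgScramble tumors, against 22, 10, 15 and 20 counts for icOVA tumors 15, 16, 18 and 2. These outputs are outside the rule for named pathway genes and were named after their values were seen.

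The pathway counts rested on the same tumors as the members' counts. With tumor 1 or 5 of the sgScramble group or tumor 15 or 2 of the icOVA group left out, 0 of the pathway genes passed the adjusted threshold.

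**Figure D4:**
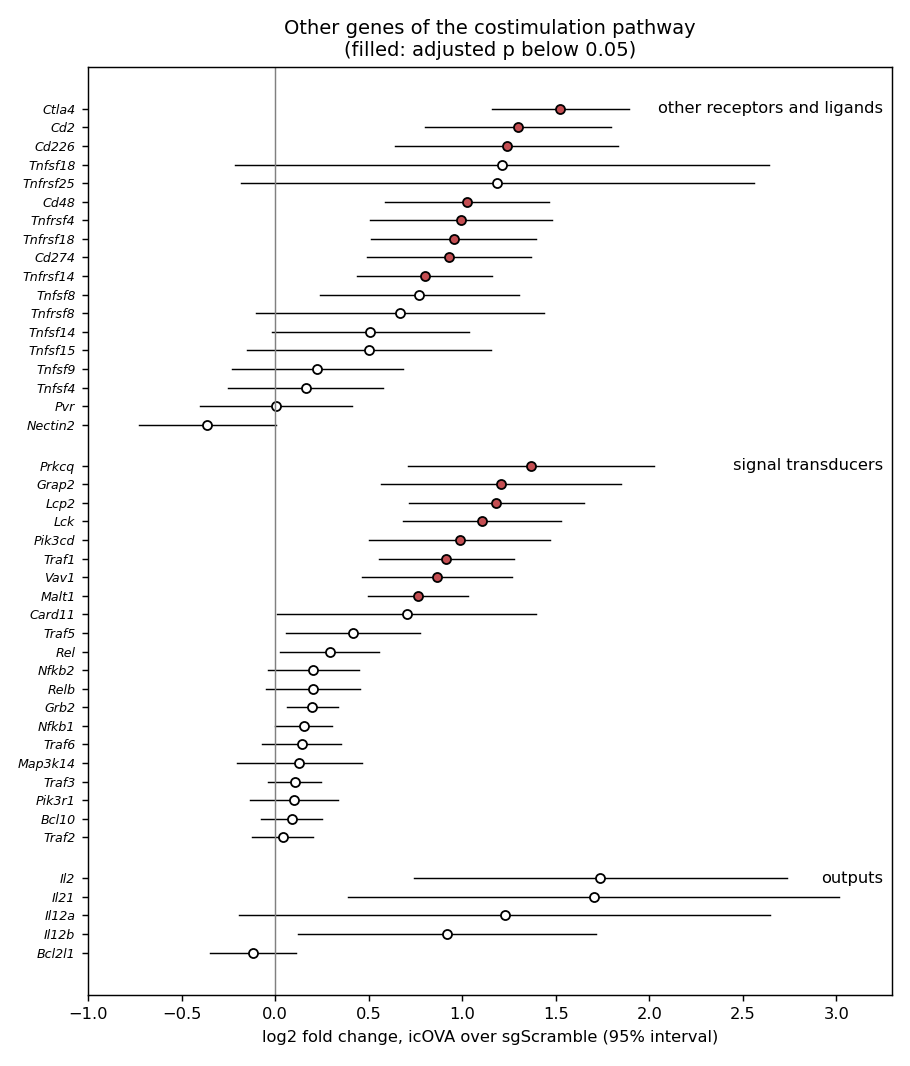
Log2 fold change of icOVA over sgScramble tumors (horizontal axis) with its 95% interval for 44 of the 45 pathway genes tested, in blocks of other receptors and ligands, signal transducers and outputs. Filled points passed an adjusted p of 0.05 in edgeR, all of them above 0 and none among the 5 outputs. Scaled to Ptprc, 0 passed as higher and 17 as lower, against 80.4% of all genes called lower.

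The genes whose pattern over the 7 tumors was most like that of a member were found by the root mean square difference of centred log2 CPM among 14119 tested genes with a mean count of at least 50. This likeness is a description over tumors that differ in group. Nearest to Cd28 were Pdcd1 (difference 0.075), the PD-1 gene, Cd247 (0.096), the zeta chain of the T cell receptor complex, and the chemokine receptor gene Cxcr6 (0.117). Nearest to Cd27 were Gpr174 (0.066) and Ms4a4b (0.081), and nearest to Icos were Ly9 (0.089), a SLAM family receptor gene, Mfsd7a (0.160) and Pirb (0.172). The few counts of Cd40lg gave looser matches, with Lilr4b (0.192), Batf (0.1997) and Rsad2 (0.202).

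The antigen-presenting genes had other neighbours. Cd40 was nearest to AB124611 (0.054), March1 (0.062), which encodes a ubiquitin ligase of MHC class II and CD86, and Igsf6 (0.064). Cd86 was nearest to Ikbke (0.070), Rmi2 (0.072) and Trim12a (0.073), and Cd80 to Phf11a (0.077), Slc4a11 (0.082) and Gm48065 (0.083). Tnfrsf9 was nearest to Slc7a2 (0.073), Cyp4b1 (0.096) and Sms (0.101), with log2 fold changes of 0.24, 0.20 and 0.21 between the groups, and Icosl to Aldh1b1 (0.091), Fam217b (0.104) and Trim36 (0.117).

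**Figure D5:**
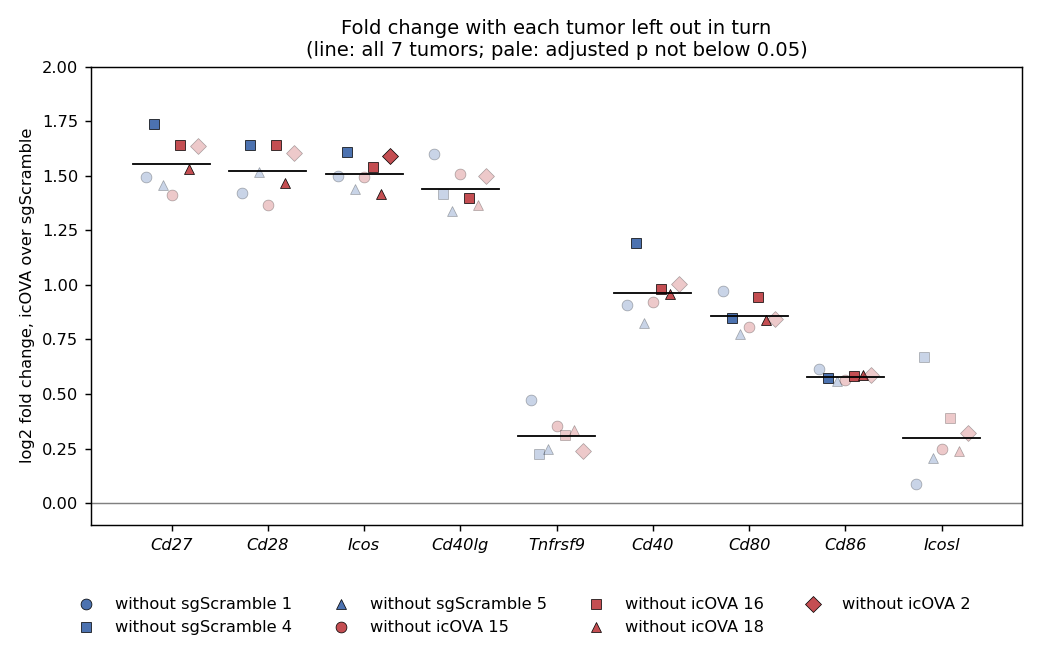
Log2 fold change of each tested member (vertical axis) with each of the 7 tumors left out in turn, and a line at the value with all tumors. Pale symbols did not pass an adjusted p of 0.05. Scaled to TMM factors, the direction was positive in all fits, from 0.088 (Icosl without sgScramble tumor 1) to 1.74 (Cd27 without sgScramble tumor 4), while the calls came and went.

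With a tumor left out, the log2 fold change was 1.37 to 1.64 for Cd28, 1.41 to 1.74 for Cd27, 1.34 to 1.60 for Cd40lg, 0.83 to 1.19 for Cd40, 0.77 to 0.97 for Cd80 and 0.56 to 0.61 for Cd86. The adjusted p values of these 6 genes and Icos went up to 0.175 in those fits.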

How the data were processed

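Deposited were counts of reads per gene, which the authors made from single-read RNA-seq of 7 s/c tumors on the mm10 genome per the labels. The labels name polyA RNA and the study's methods a stranded total RNA kit. The aligner, counter and annotation are not given in the sources used here. Samples were grouped by their genotype label, 3 sgScramble and 4 icOVA. Identifiers were paired with symbols for 22414 of 22628 Ensembl rows, and coordinates come from GENCODE M21, which holds 21803 of them with the same version. All columns were mapped to a sample.

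The members and lists were chosen with earlier results of these data known. Counts were filtered with filterByExpr (minimum count 10, minimum total 15), scaled by TMM and tested with the quasi-likelihood test of edgeR 4.0.16 in R 4.3.3, with Benjamini-Hochberg adjustment over all 17489 genes and a threshold of 0.05. CPM used the TMM-scaled library sizes. Log2 ratios were tested with exact two-sided permutation tests over the 35 splits of the tumors. The code was checked on simulated counts. Alternatives were DESeq2 1.42.0, limma-voom (limma 3.58.1), other scalings and filters, other prior counts, and leaving out each tumor. Replicates differed by more than counting noise in every pair, and the labels do not say that each tumor came from its own mouse, so p-values cover the spread between these samples only.

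Named were all 10 members, the 15 pathway genes called with the largest change, Ctla4 and Tnfsf9, the 3 most like patterns per member tested, and markers beside a result. Genes that these rules would name but that were withheld are not reported here.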

Additional observations from a re-analysis of the deposited data

Results flagged for a closer look

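Among the icOVA tumors, the Cd86 level of tumor 15 stood apart on the log2 CPM scale: its gap to the nearest tumor was 0.866 of the whole range of the group, above Dixon's 95% critical value for 4 samples. The level there was 44.0 CPM against 41.7 to 42.0 CPM in the other 3 tumors, a narrow range in absolute terms. Of 37 values examined in this way 1 was past its critical value, where chance gives about 1.85. Without that tumor the log2 fold change of Cd86 was 0.57.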

How the results depend on the processing

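The 7 members called higher were also called with DESeq2, limma-voom, scaling to total counts or to the upper quartile, a robust dispersion and no filter on low counts. Among these 7, Cd40lg reached the minimum count in icOVA tumors alone, and all of these settings but the last used the filter on that count. With at least 10 counts in every tumor 6 were called, Cd40lg not being tested. The pathway count stayed within 1.5 times of 17 under the same settings.

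Scaling to Ptprc, where the median of all 17489 genes was -1.10 on the log2 scale, left 0 members higher and 3 lower, and 0 pathway genes higher and 17 lower, with 80.4% of all genes called lower and 0.4% higher. Among the members and the named pathway genes alone, the log2 fold changes that turned negative were those of Tnfrsf9 (-0.78), Cd80 (-0.25), Cd86 (-0.52), Icosl (-0.76), Cd40 (-0.095), Cd48 (-0.074), Tnfrsf4 (-0.10), Pik3cd (-0.10), Tnfrsf18 (-0.16), Cd274 (-0.13), Traf1 (-0.17), Vav1 (-0.20) and Tnfsf9 (-0.88). Each of these listed genes was above the median of all genes. The pathway genes that are not named are not listed here. This scaling sets Ptprc to no change by construction.

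With a tumor left out, the number of members called higher ranged from 0 to 7 and of pathway genes from 0 to 20. The count of genes called in the whole table fell to 0 with tumor 1 or 5 of the sgScramble group or icOVA tumor 15 left out, and to 8 without icOVA tumor 2. The cause was not tested.

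Among the ratios, Cd27 to Cd70 was 0.49 with a prior count of 0.5 and 1.17 with 5, and Cd40lg to Cd40 was -0.015 with a prior count of 5. Cd40lg to Cd3e was 0.13 with a prior count of 0.5 and 0.012 against the summed Cd3e, Cd3d and Cd3g, and it ranged from -0.23 to 0.22 with a tumor left out. Tnfrsf9 to Tnfsf9 ranged from -0.047 to 0.17. None of these passed the test with all tumors, and with 1 left out the smallest p possible is 0.0667 or 0.1. No paired analysis was possible because no tumor number occurs in both groups.

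Cd70 and Cd40lg, with at most 4 and 21 counts per tumor, are the members for which depth limits the comparison most. The icOVA cells were cloned, and the sources used here do not state the same of the sgScramble cells. Nor do they state whether the mice with sgScramble tumors received doxycycline, or how many sgScramble cells were inoculated.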
